A study of Homo sapiens with 10 samples.

Results

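The 10 genes described here encode the enzymes that build phosphatidylcholine and phosphatidylethanolamine from choline and ethanolamine: CHKA, CHKB, PCYT1A, PCYT1B, PCYT2, CEPT1, CHPT1, ETNK1, ETNK2 and PEMT. They were chosen by name, as the rows of the deposited count matrix that carry these symbols. All 10 were found among the 32738 genes of the matrix, and all 10 were kept among the 12733 genes left after low counts were removed. Phosphatidylcholine and phosphatidylethanolamine are the main phospholipids of cell membranes, and both are made at the endoplasmic reticulum (ER) by parallel branches of the Kennedy pathway. In each branch a kinase phosphorylates the free base, a cytidylyl transferase joins the product to CTP, and a phosphotransferase passes the activated head group to diacylglycerol. Liver cells also convert phosphatidylethanolamine to phosphatidylcholine with the methyltransferase PEMT, and they need phosphatidylcholine for the surface of secreted lipoproteins and for bile.

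HepG2 cells, a human hepatoma line, were kept for 17 h in growth medium alone (control) or in medium with 2 µg/ml tunicamycin, an inhibitor of N-linked glycosylation that causes ER stress. There were 5 libraries per condition, from replicate experiments on separate days, so that a control and a tunicamycin library share each replicate number. Reads come from mRNA 3′ ends (QuantSeq), which gives about one fragment per transcript whatever its length. The cells are 1 transformed line, and the control was medium without added drug.

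The control libraries held 4242538 to 4888292 counts and the tunicamycin libraries 2234682 to 5029864, with the lowest total in tunicamycin replicate 5. The mitochondrial share was 22.7% to 25.2% in control and 18.3% to 28.8% in tunicamycin libraries. HSPA5, the ER chaperone BiP and the check of the treatment, had a log2 fold change of 2.97 (SE 0.08), and all 5 genes of the ER stress check list were higher. All 8 hepatocyte markers were detected, and their summed level was 65549 to 82018 normalized counts in control and 50629 to 56576 in tunicamycin libraries. The 5 hepatocyte markers that passed the test were lower. Markers of fibroblasts, endothelium and immune cells summed to 16.6 to 35.3 normalized counts in control and 10.1 to 26.1 in tunicamycin libraries, and 2 of the 6 genes found (DCN and PTPRC) had no count. Nearly all of this sum was CD68, a lysosomal protein abundant in macrophages, which was called lower (log2 fold change -0.83, adjusted p = 0.0319, edgeR's quasi-likelihood test). The part of these markers in the results below was not tested. Levels are given as normalized counts, that is, counts per TMM-scaled library brought to the mean size of the libraries. They measure a transcript's share of the library, so that fewer expressing cells and less RNA per cell cannot be told apart.

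Of the 10 genes, 4 were lower with tunicamycin (PCYT2, ETNK2, PCYT1B and CEPT1) and 2 were higher (CHPT1 and ETNK1), where a call is a Benjamini-Hochberg adjusted p under 0.05 from edgeR's quasi-likelihood fit. Among all genes tested 16.6% were lower and 17.6% were higher by the same rule, so that the share of higher genes was near the background, while 4 of 10 lower genes lay above it. CHKA, CHKB, PCYT1A and PEMT did not pass the test. The median log2 fold change was -0.38 over the 10 genes and 0.00 over all genes tested. For PCYT2, ETNK2 and PCYT1B every tunicamycin library was below every control library, as for 11.9% of all genes tested. None of the 10 genes had all tunicamycin libraries above all control libraries, a pattern seen in 11.7% of genes tested. The summed level of the 10 genes was 1983 ± 152 normalized counts in control and 1984 ± 209.8 in tunicamycin libraries (SD, n = 5 each), with overlapping ranges of 1806 to 2138 and 1699 to 2249.

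**Figure D1:**
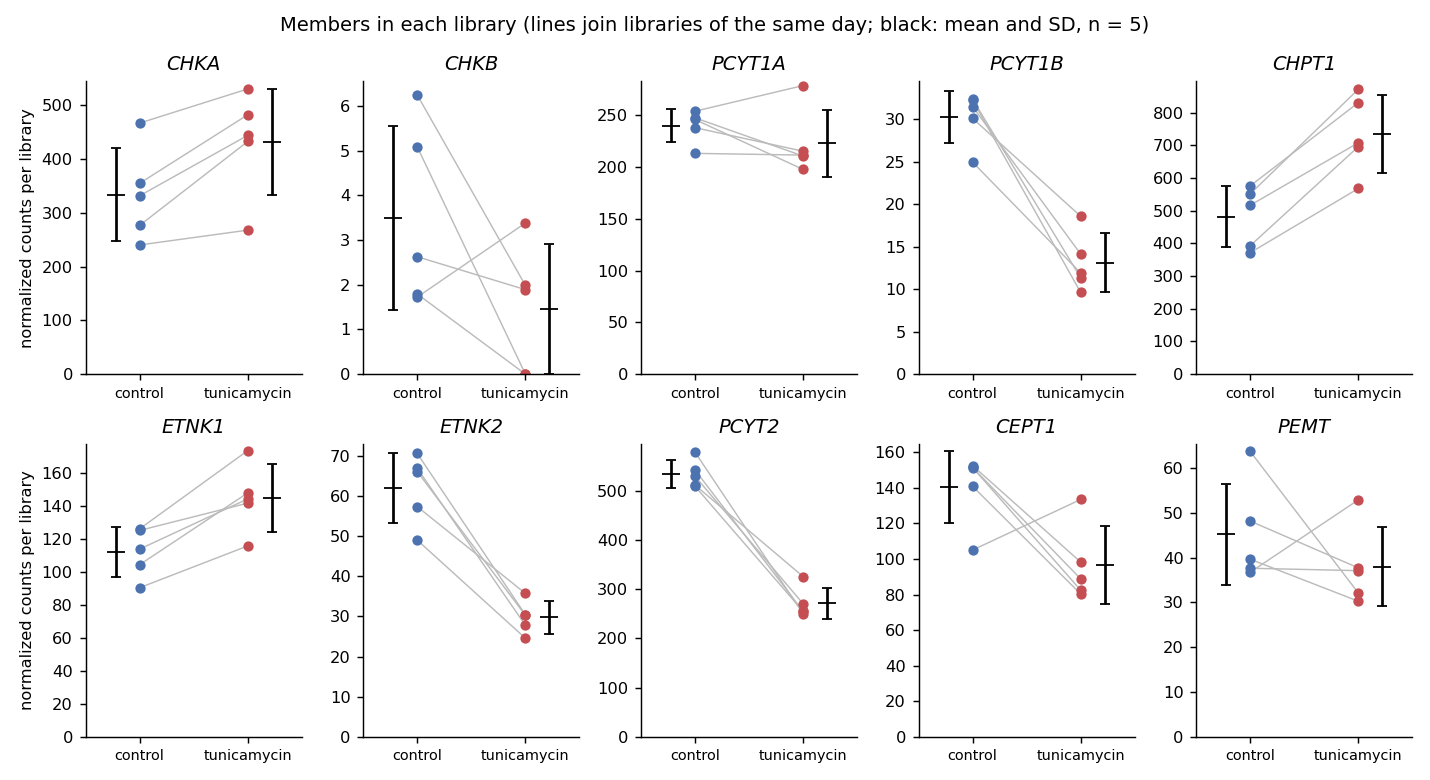
Normalized counts (vertical axes from 0) of the 10 genes in each of the 5 control and 5 tunicamycin libraries. Grey lines join libraries of the same day, and black bars give the mean and SD. PCYT1B, ETNK2 and PCYT2 fall on every day without overlap between the conditions, CHKA, CHPT1 and ETNK1 are higher with tunicamycin on every day, and CEPT1 is lower on 4 of 5 days.

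The order of the levels changed. In control cells PCYT2 had the highest mean, 534 normalized counts, ahead of CHPT1 (482), CHKA (334), PCYT1A (239.8), CEPT1 (140.2), ETNK1 (112), ETNK2 (62.0), PEMT (45.2), PCYT1B (30.2) and CHKB (3.49). These are 3′ counts per transcript and were not divided by length. The ranges of neighbours in this order overlapped from PCYT2 down to PCYT1A, between CEPT1 and ETNK1, and between ETNK2 and PEMT. They did not overlap between PCYT1A and CEPT1, between ETNK1 and ETNK2, or below PEMT. With tunicamycin CHPT1 came first, at 735 normalized counts and with every library above those of the next gene, CHKA (431). PCYT2 followed with 271, and its range overlapped those of CHKA and PCYT1A (223). ETNK1 (145) and CEPT1 (96.6) had changed places, as had PEMT (38.0) and ETNK2 (29.7), with overlapping ranges within each of these pairs, and PCYT1B (13.1) and CHKB (1.45) stayed last.

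The decrease with the smallest p was that of PCYT2, in the ethanolamine branch. PCYT2 encodes the cytidylyl transferase that makes CDP-ethanolamine, the step usually taken to set the rate of the branch. It had 578, 542, 509, 512 and 529.6 normalized counts in control replicates 1 to 5 and 250.0, 255, 255, 326 and 270.4 with tunicamycin, in the same order. The lowest control library was thus well above the highest tunicamycin library, which was replicate 4. The log2 fold change was -0.98 (SE 0.09, adjusted p = 1.56e-07, edgeR's quasi-likelihood test), a 1.98-fold decrease, and the log2 ratio of same-day libraries was between -1.21 and -0.65. It stayed between -1.07 and -0.93 in all 18 alternative fits and was called in each.

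The ethanolamine kinases, which phosphorylate free ethanolamine, moved in opposite directions. ETNK2 had 70.6, 66.9, 49.0, 57.3 and 66.1 normalized counts in control replicates 1 to 5 and 30.4, 27.8, 24.6, 35.7 and 30.3 with tunicamycin. No tunicamycin library reached the lowest control library, and the log2 fold change was -1.07 (SE 0.17, adjusted p = 0.000102, edgeR's quasi-likelihood test). ETNK1 had 90.4, 104, 125, 114 and 126 normalized counts in control replicates 1 to 5 and 116, 148, 142, 144 and 174 with tunicamycin. It was higher on each of the 5 days, although the ranges overlapped, with a log2 fold change of 0.36 (SE 0.13, adjusted p = 0.043, edgeR's quasi-likelihood test). This call was marginal. It was lost without control replicate 1, 2 or 4 and without tunicamycin replicate 2, 3, 4 or 5, where the log2 fold change was 0.29 to 0.37 and the adjusted p 0.0581 to 0.112, and with library size as the only scaling (log2 fold change 0.27, adjusted p = 0.121). Added together, the kinases gave 174 ± 11.3 normalized counts in control and 174 ± 21.0 in tunicamycin libraries (SD, n = 5 each), so that their composition shifted while their sum did not move beyond its spread. ETNK1, ETNK2 and PCYT2 together summed to 683 to 739 normalized counts in control and 396 to 506 in tunicamycin libraries. SELENOI, the phosphotransferase dedicated to ethanolamine, is not in this sum and was called higher (below).

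**Figure D2:**
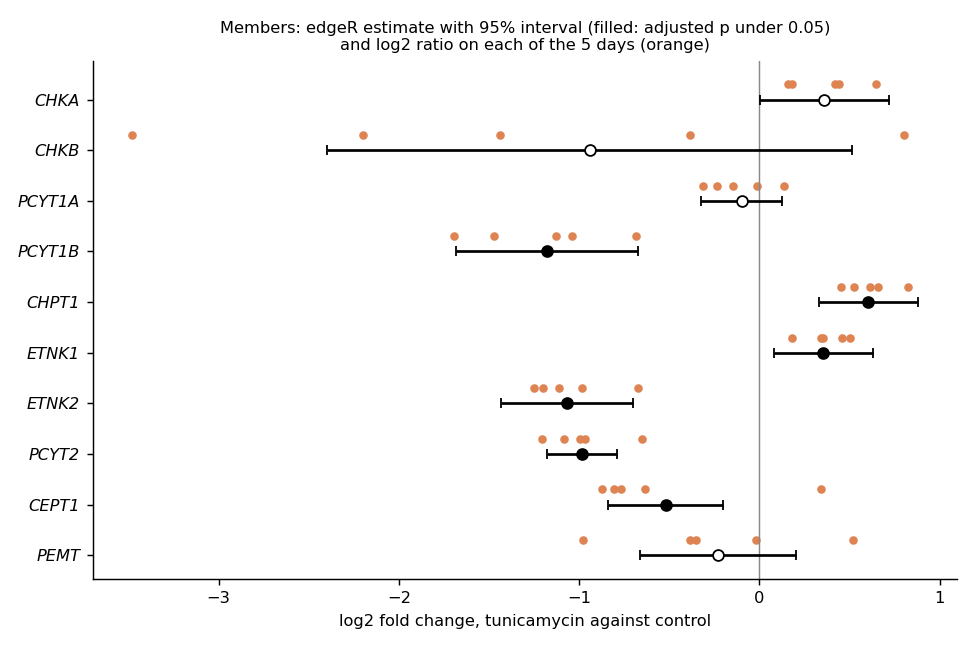
Log2 fold change of the 10 genes, tunicamycin against control (horizontal axis), from edgeR's quasi-likelihood fit with the 95% interval (black; filled where the adjusted p is under 0.05), and the log2 ratio of normalized counts on each of the 5 days (orange). The intervals of PCYT1B, ETNK2, PCYT2 and CEPT1 lie below 0 and those of CHPT1, ETNK1 and, barely, CHKA above it.

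Promoter sequences are shown for PCYT2 and ETNK2, which fell by similar amounts, and for CHPT1 and ETNK1, the pair called higher (ETNK1 marginally). Those of PCYT1B and CEPT1, which were also called lower, are not printed. Each is the 250 bases before a RefSeq transcription start in GRCh38.p14, written 5′ to 3′ on the strand of the gene. Capitals mark CCAAT and GGGCGG (a GC box, the letters bound by Sp1-type factors) in either orientation. The windows are chr17:81911400-81911649 (minus strand) for PCYT2, chr1:204152045-204152294 (minus strand) for ETNK2, chr12:101697390-101697639 (plus strand) for CHPT1 and chr12:22624921-22625170 (plus strand) for ETNK1.
PCYT2: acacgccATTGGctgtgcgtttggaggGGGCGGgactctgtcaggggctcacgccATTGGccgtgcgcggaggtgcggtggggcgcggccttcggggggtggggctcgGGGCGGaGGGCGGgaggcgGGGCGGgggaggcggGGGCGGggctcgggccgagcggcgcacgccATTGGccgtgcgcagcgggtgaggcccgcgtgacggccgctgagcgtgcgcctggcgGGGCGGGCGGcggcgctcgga
ETNK2: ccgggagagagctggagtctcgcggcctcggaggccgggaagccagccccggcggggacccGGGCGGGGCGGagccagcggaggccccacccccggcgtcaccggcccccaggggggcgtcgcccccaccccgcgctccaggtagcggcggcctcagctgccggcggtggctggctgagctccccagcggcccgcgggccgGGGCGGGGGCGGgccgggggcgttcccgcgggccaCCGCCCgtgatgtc
CHPT1: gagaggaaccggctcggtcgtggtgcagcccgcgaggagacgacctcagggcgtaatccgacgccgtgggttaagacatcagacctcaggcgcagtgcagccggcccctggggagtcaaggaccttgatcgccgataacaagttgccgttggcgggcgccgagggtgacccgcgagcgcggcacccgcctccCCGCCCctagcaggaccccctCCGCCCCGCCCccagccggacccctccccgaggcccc
ETNK1: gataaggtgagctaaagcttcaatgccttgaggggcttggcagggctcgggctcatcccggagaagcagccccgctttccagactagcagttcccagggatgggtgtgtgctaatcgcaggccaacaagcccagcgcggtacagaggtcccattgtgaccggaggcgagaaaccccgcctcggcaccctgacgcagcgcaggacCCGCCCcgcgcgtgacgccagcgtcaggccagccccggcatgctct

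The printed PCYT2 window held 3 copies of CCAAT, all on the opposite strand and therefore read as attgg, at -243, -195 and -78 from that start. The window of another PCYT2 start, chr17:81911176-81911425, is not printed and has no CCAAT. The copies at -195 and -78 lie in the same 18 bases, acgccATTGGccgtgcgc, and the copy at -243 differs from these at 2 of 18 positions. None of the 4 printed windows has another CCAAT, and each has at least 1 GC box. Motifs were also counted in 300-base windows, 250 before and 50 after the start, on both strands and with overlaps allowed, for 9 of the 10 genes (14 windows, since some genes have several starts; CHKA was not matched). CCAAT was found in 3 of the 14 windows, from PCYT2, PCYT1B and CHKB, and in 34.6% of 35116 windows of all genes. GGGCGG was found in 9 of the 14 windows, from 7 genes, and in 45.0% of all windows. The ER stress response element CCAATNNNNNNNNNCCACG, the unfolded protein response element TGACGTGG, the sterol regulatory element TCACNCCAC and the AP-1 letters TGANTCA were in none of the 14 windows, against 0.0769%, 0.729%, 1.13% and 7.71% of all windows. The letters TGATGNAA of an amino acid response element were found in 1 window, of PCYT1A, and in 3.62% of all windows, and the E-box CACGTG in 1 window, of PEMT, and in 7.26% of all windows. These are matches of letters in short windows and say nothing of the binding of a factor.

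In the choline branch the cytidylyl transferase PCYT1B fell and the kinases did not pass the test. CHKA encodes choline kinase alpha, which phosphorylates choline as the first step of phosphatidylcholine synthesis. It had 240.1, 276, 332, 467 and 355 normalized counts in control replicates 1 to 5 and 268, 433, 444, 530.3 and 482 with tunicamycin. Replicate 1 was the lowest library and replicate 4 the highest in both conditions, and tunicamycin was above control on each of the 5 days. The log2 fold change was 0.36 (SE 0.17, 95% interval 0.00 to 0.72) with an adjusted p of 0.111 in edgeR's quasi-likelihood test without the day. With the replicate block, in which same-day libraries are compared, it was 0.37 with an adjusted p of 0.0026, so that the call of CHKA depends on the pairing. That pairing rests on the replicate numbers, and the deviations of same-numbered libraries from their condition means correlated at only 0.0197 to 0.36. CHKA was also called without control replicate 4 (0.52, adjusted p = 0.0192) and without tunicamycin replicate 1 (0.50, adjusted p = 0.00999).

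CHKB, which encodes choline kinase beta, was close to the limit of detection. Its raw counts were 2, 7, 3, 2 and 5 in control replicates 1 to 5 and 4, 2, 2, 0 and 0 with tunicamycin, where a count of 0 allows up to 3 counts in a library and covers counting error only. The log2 fold change was -0.94 with a 95% interval of -2.40 to 0.52, and a difference was not detectable at this depth.

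PCYT1A and PCYT1B encode the alpha and beta forms of the choline-phosphate cytidylyl transferase, the regulated step of the choline branch. PCYT1A had 213 to 254 normalized counts in control and 197.7 to 279 in tunicamycin libraries, and its log2 fold change of -0.10 (95% interval -0.32 to 0.13, adjusted p = 0.52, edgeR's quasi-likelihood test) had an interval on both sides of 0. PCYT1B, a much less abundant transcript, had 30.1, 25.0, 32.4, 32.3 and 31.5 normalized counts in control replicates 1 to 5 and 18.6, 11.9, 11.3, 9.62 and 14.1 with tunicamycin. All tunicamycin libraries were below all control libraries, and the log2 fold change was -1.18 (SE 0.24, adjusted p = 0.000816, edgeR's quasi-likelihood test), the largest decrease among the 6 of the 10 genes that passed the test. The kinases and cytidylyl transferases of the choline branch summed to 526 to 714 normalized counts in control and 568 to 751 in tunicamycin libraries. These ranges overlapped, unlike those of the sum of ETNK1, ETNK2 and PCYT2. In that sum the kinases averaged 174 normalized counts in both conditions, while PCYT2 went from 534 to 271. The sums of the branches were not compared by a test. Neither sum includes a phosphotransferase.

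In the last step the phosphotransferases diverged. CHPT1, the choline phosphotransferase, had 372, 393, 517, 552 and 576 normalized counts in control replicates 1 to 5 and 568, 697, 708, 872 and 831 with tunicamycin. Only the lowest tunicamycin library (replicate 1) lay within the control range, and tunicamycin was higher on each of the 5 days. The log2 fold change was 0.60 (SE 0.13, adjusted p = 0.00147, edgeR's quasi-likelihood test), a 1.52-fold increase. CEPT1, which uses both CDP-choline and CDP-ethanolamine, had 105, 152, 141, 151 and 152 normalized counts in control replicates 1 to 5 and 133, 98.2, 80.3, 82.4 and 88.8 with tunicamycin. In replicates 2 to 5 all tunicamycin libraries were below all control libraries, while on the day of replicate 1 the order was the opposite. The log2 fold change was -0.52 (SE 0.15, adjusted p = 0.0126, edgeR's quasi-likelihood test), and after thinning every library to the smallest total it was -0.47 and no longer called (adjusted p = 0.0638). The phosphotransferases summed to 622 ± 107 normalized counts in control and 832 ± 103.7 in tunicamycin libraries (SD, n = 5 each).

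PEMT, which methylates phosphatidylethanolamine to phosphatidylcholine, had 63.7, 48.2, 36.7, 37.6 and 39.6 normalized counts in control replicates 1 to 5 and 32.1, 37.7, 52.9, 37.1 and 30.3 with tunicamycin. The libraries of the conditions were interleaved and the direction differed between days. The log2 fold change was -0.23 (95% interval -0.67 to 0.20, adjusted p = 0.416, edgeR's quasi-likelihood test).

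Since a call in one paralog and none in the other does not show that they differ, the ratio within each pair of paralogs was tested directly. The difference between conditions in the mean log2 ratio was assessed by a two-sided exact permutation test over the 10 libraries, which cannot give a p below 0.00794, with Benjamini-Hochberg adjustment over the 4 pairs. ETNK2 to ETNK1 fell by 1.41 on the log2 scale (exact p = 0.00794, adjusted p = 0.0106), and ETNK2 went from 28.1% to 43.9% of the counts of its pair in control libraries to 14.8% to 20.8% with tunicamycin. PCYT1B to PCYT1A fell by 1.09 (exact p = 0.00794, adjusted p = 0.0106), with PCYT1B at 9.49% to 13.1% of the pair in control and 4.35% to 6.67% in tunicamycin libraries. CHPT1 to CEPT1 rose by 1.16 (exact p = 0.00794, adjusted p = 0.0106), and CHPT1 went from 72.1% to 79.2% of the pair to 81.0% to 91.4%. In these 3 pairs the conditions did not overlap in any library. For CHKB to CHKA the difference was -1.71 (exact p = 0.103, adjusted p = 0.103), with few counts of CHKB behind it, and without tunicamycin replicate 1 it was -2.24 (exact p = 0.0317).

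**Figure D3:**
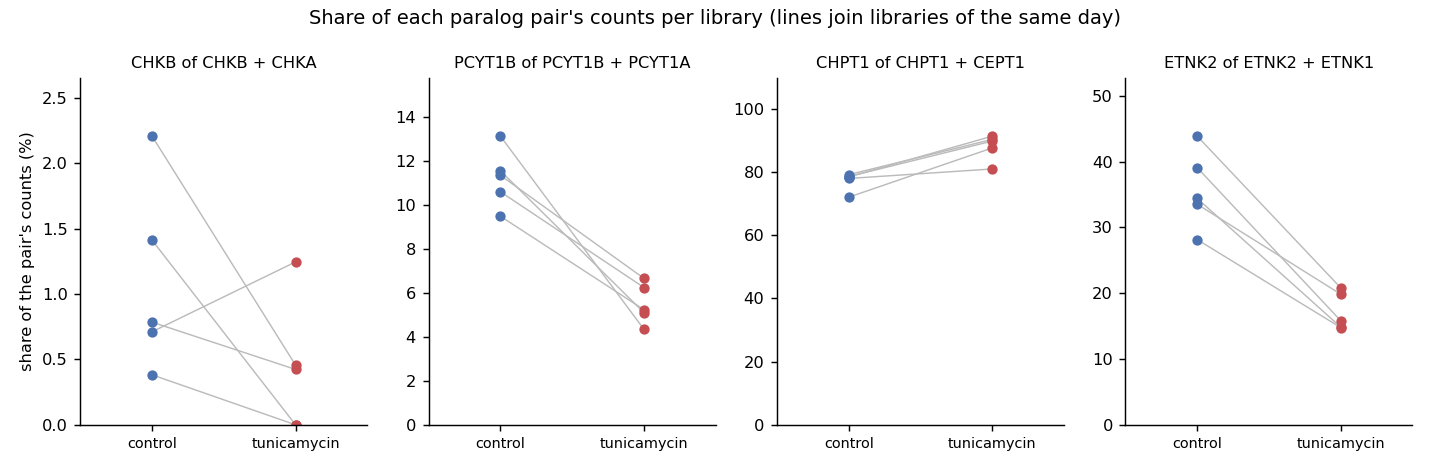
Share (%) of a paralog pair's normalized counts taken by the gene named first, in each control and tunicamycin library, with lines joining libraries of the same day. PCYT1B and ETNK2 lose share and CHPT1 gains share without overlap between the conditions, while the shares of CHKB, at 0% to 2.21%, overlap.

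The genes lie apart in the genome. In GENCODE annotation of GRCh38, matched by Ensembl identifier, CHKA (ENSG00000110721, 12 exons) lies at chr11:68052859-68121444 and CHKB (ENSG00000100288, 11 exons) at chr22:50578959-50601455. PCYT1A (ENSG00000161217, 9 exons) lies at chr3:196214222-196287957, PCYT1B (ENSG00000102230, 8 exons) at chrX:24558087-24672677 and PCYT2 (ENSG00000185813, 13 exons) at chr17:81900958-81911432. CEPT1 (ENSG00000134255, 9 exons) lies at chr1:111139479-111185104, CHPT1 (ENSG00000111666, 9 exons) at chr12:101696947-101744140, ETNK1 (ENSG00000139163, 8 exons) at chr12:22625075-22690665, ETNK2 (ENSG00000143845, 8 exons) at chr1:204131062-204152044 and PEMT (ENSG00000133027, 7 exons) at chr17:17505563-17591708. CEPT1, CHPT1 and ETNK1 are on the plus strand and the others on the minus strand. Exons of PCYT1B and ETNK1 overlap no exon of another gene. Exons of 7 genes overlap exons on the opposite strand, such as those of NPB and ANAPC11 for PCYT2. On the same strand, exons of CHKB overlap the readthrough gene CHKB-CPT1B. Those of PCYT1A share 321 bases with the protein-coding gene ENSG00000272741, also on the same strand. The authors ran their pipeline at its defaults and name no strand option, so that counts of these genes are uncertain to that extent. NPB had 0 or 1 count in each library and CHKB-CPT1B had 0, while ANAPC11 averaged 532 normalized counts and shares 34 exon bases with PCYT2. DRAM2, which shares 414 exon bases with CEPT1 on the opposite strand, averaged 45.2 normalized counts beside 118 for CEPT1, and SLC51A, which shares 389 with PCYT1A, averaged 43.4.

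The neighbouring genes of choline and ethanolamine metabolism were followed in 7 lists with 38 genes, all found in the table, of which 36 were tested. Of these, 7 were called higher and 9 lower by the same edgeR criterion, or 19.4% and 25.0%, beside 17.6% and 16.6% of all genes tested. Their median log2 fold change was -0.10. Without control replicate 1 only 6 of the genes were called lower, and CHDH, CTPS2 and SARDH were not.

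In the serine and ethanolamine route 2 of 4 genes rose. SELENOI, the phosphotransferase dedicated to ethanolamine and listed in the table as EPT1, had 120.4 to 228 normalized counts in control and 214.5 to 371 in tunicamycin libraries, a log2 fold change of 0.92 (SE 0.17, adjusted p = 0.000303, edgeR's quasi-likelihood test). PISD, the mitochondrial decarboxylase that makes phosphatidylethanolamine from phosphatidylserine, had 49.1 to 126 normalized counts in control and 155 to 224 in tunicamycin libraries, a log2 fold change of 0.93 (SE 0.19, adjusted p = 0.00064). Both were higher on each of the 5 days. PTDSS1 (log2 fold change -0.13) and PTDSS2 (-0.10), the phosphatidylserine synthases, did not pass the test. Thus PCYT2 and ETNK2 were lower while SELENOI, at the last step of the same branch, and PISD, the mitochondrial enzyme with the same product, were higher. The branch did not divide by step, since ETNK1 was called higher and CEPT1, which also acts at the last step, was called lower.

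Of 8 transport genes 7 were tested, and SLC5A7 had no count. FLVCR2, a choline transporter, was higher (log2 fold change 0.98, SE 0.19, adjusted p = 0.000522). SLC44A4, of the choline transporter-like family, had 168 ± 32.5 normalized counts in control and 71.1 ± 9.62 in tunicamycin libraries (SD, n = 5 each) and fell by 1.25 on the log2 scale (adjusted p = 3.04e-06, edgeR's quasi-likelihood test). SLC44A1, the most abundant of these transcripts, had a log2 fold change of 0.48 and an adjusted p of 0.0513 in the same test, and was higher on each of the 5 days. With the replicate block it was called higher (0.52, adjusted p = 0.000238), and it passed in 9 of 18 alternative fits, those without control replicate 4 or 5 or tunicamycin replicate 1 included (adjusted p 0.0134 to 0.047).

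Of the CTP synthases, CTPS2 was called lower (log2 fold change -0.53, adjusted p = 0.0252, edgeR's quasi-likelihood test) and CTPS1 was not (-0.18). The call of CTPS2 was lost without control replicate 1 or 3 or tunicamycin replicate 1 (adjusted p 0.0598 to 0.069), in DESeq2 with the day as a block (0.0882) and after thinning (0.0977). Among the 6 genes of choline breakdown, CHDH (-0.29, adjusted p = 0.0256), which oxidizes choline in mitochondria, SARDH (-0.36, adjusted p = 0.0308), which demethylates sarcosine, and BHMT were called lower. The call of CHDH was lost without control replicate 1 or tunicamycin replicate 2 or 4 (adjusted p 0.0521 to 0.0753), and that of SARDH without control replicate 1, 3 or 4 or tunicamycin replicate 2, 3 or 4 (adjusted p 0.0528 to 0.078). SARDH was also not called with no filter (adjusted p = 0.0577), in DESeq2 with the replicate block (adjusted p = 0.106) or after thinning, where its log2 fold change was -0.22 (adjusted p = 0.292). BHMT, which uses betaine to methylate homocysteine, had the largest change of the lists (log2 fold change -3.32, SE 0.55, adjusted p = 0.000109) but few counts, 80 in all control libraries and 6 in all tunicamycin libraries. Of the genes that supply S-adenosylmethionine, the methyl donor of PEMT, MAT1A fell (-0.63, adjusted p = 1.34e-05) while MAT2B (0.69, adjusted p = 0.00316) and AHCY (0.61, adjusted p = 0.00514) rose. MAT1A encodes the liver form of the synthetase, MAT2B a regulatory subunit of the other form, and AHCY the enzyme that removes S-adenosylhomocysteine.

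Among the enzymes that release choline or ethanolamine from lipids, 9 of 10 were tested (PHOSPHO1 had no count), 1 was called higher and 3 were called lower (edgeR's quasi-likelihood test). GPCPD1, which splits glycerophosphocholine, rose (log2 fold change 0.51, adjusted p = 0.00228). PLD1, a phospholipase D that acts on phosphatidylcholine (-0.53, adjusted p = 0.00536), PNPLA6, which degrades it to glycerophosphocholine (-0.87, adjusted p = 0.00601), and GDE1 (-0.31, adjusted p = 0.0156) fell. Of 3 genes of sphingomyelin and ceramide phosphoethanolamine synthesis, SGMS2 was called higher (1.15, adjusted p = 0.0105) from 55 counts in all control and 102 in all tunicamycin libraries, and not after thinning (1.04, adjusted p = 0.0574). BHMT and SGMS2 averaged under 20 normalized counts and are named because they complete the calls.

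**Figure D4:**
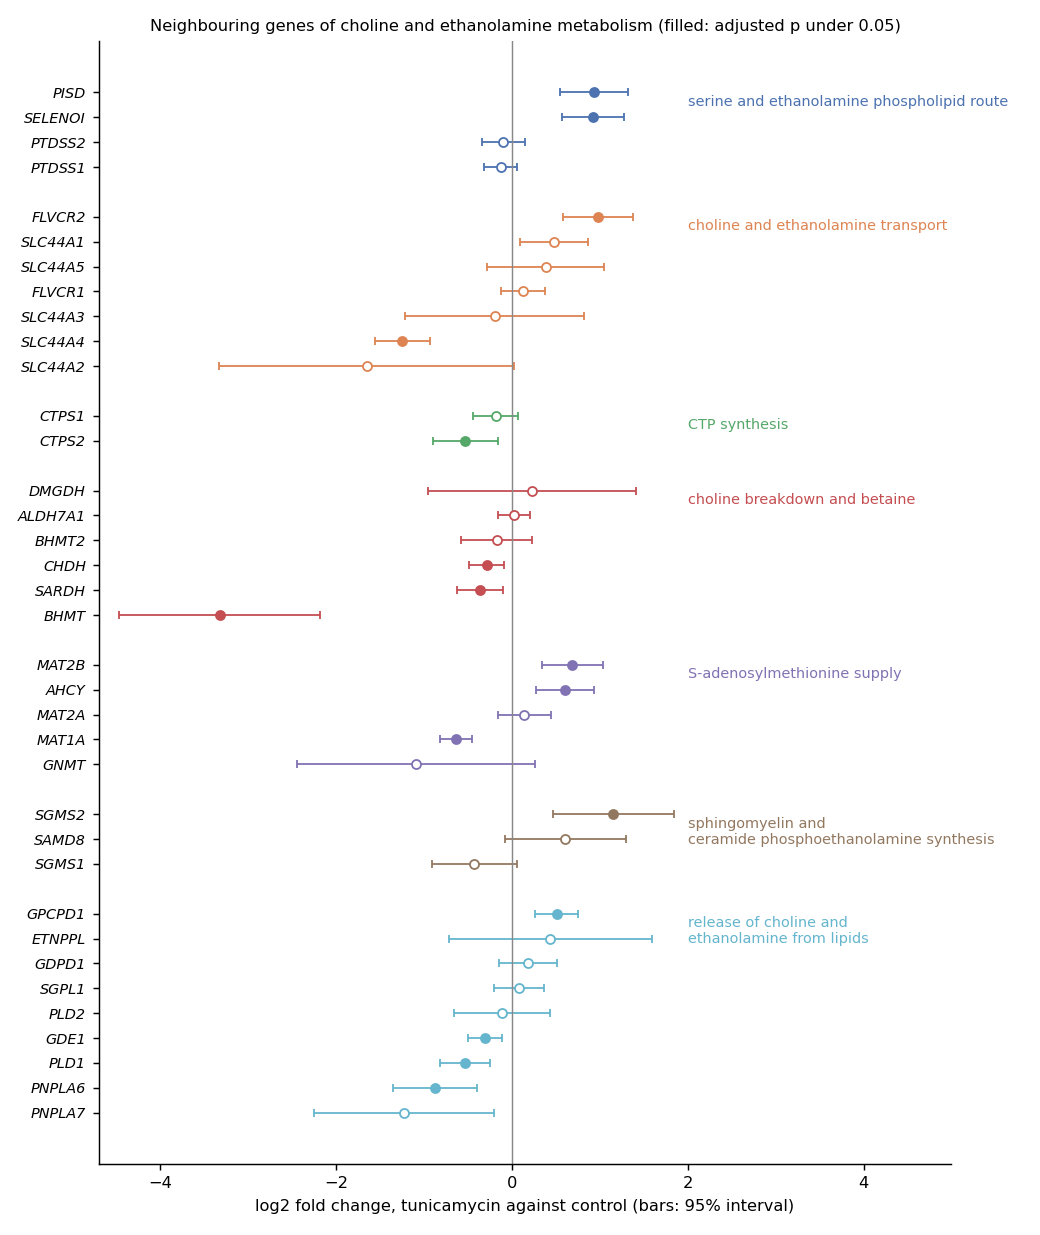
Log2 fold change, tunicamycin against control (horizontal axis), with the 95% interval from edgeR's quasi-likelihood fit for the 36 tested genes of 7 neighbouring lists, coloured by list and filled where the adjusted p is under 0.05. PISD, SELENOI and FLVCR2 lie near 0.9 to 1.0, and BHMT, at -3.32, lies farthest from 0.

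PCYT2 had the smallest p of the 10 genes, and its response was compared with that of 9706 other tested genes whose mean reached 20 normalized counts. The measure of likeness was the mean absolute difference between the 5 same-day log2 ratios. The most similar genes were CFI (mean absolute difference 0.0710, log2 fold change -0.93), which encodes complement factor I, ETNK2 (0.0712, log2 fold change -1.07) and PLCXD1 (0.0715, log2 fold change -1.03). The ethanolamine kinase ETNK2 was thus among the 3 genes nearest to PCYT2 by this measure, while the other ethanolamine kinase, ETNK1, was higher (log2 fold change 0.36). ETNK2 had only 342 counts in all control and 131 in all tunicamycin libraries. The measure takes no account of the counting error in its same-day ratios, and the 3 distances were nearly equal. Shared regulation was not tested. In PCYT2 and ETNK2 the smallest decrease was that of replicate 4, and the ratios of the other days were between -1.25 and -0.97.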

How the data were processed

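Gene expression was measured in 10 libraries, 5 control and 5 tunicamycin, with groups and replicate numbers taken from the titles. The authors mapped reads to hg19 with Ensembl transcript definitions in the nf-core RNA-Seq pipeline and deposited raw counts per gene, without normalization. The pipeline ran at its default settings, and no strand option is named.

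From the counts, genes were filtered with filterByExpr (minimum count 2, minimum total 10), scaled by TMM and tested with edgeR 4.0.16 (R 4.3.3) by the quasi-likelihood test, with the condition alone in the design. Benjamini-Hochberg adjustment ran over 12733 genes, with a threshold of 0.05. The SE is the absolute log2 fold change divided by the square root of F. Ratios used a pseudocount of 0.5. The script was tested on simulated data. DESeq2 1.42.0, the test of the study, other scalings, other filters, thinned counts and left-out libraries served as alternatives.

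Replicates are experiments on separate days per the series text, and same numbers were taken as the same day. Over 9707 genes the deviations of same-numbered libraries from their condition means correlated at 0.36, 0.0197, 0.0764, 0.162 and 0.137 for replicates 1 to 5. In replicates 2 and 5 the control library correlated more with a tunicamycin library of another number. The pairing by day thus rests on the replicate numbers. The share of all genes tested that moved in 1 direction on all 5 days was not counted. Libraries of 1 condition differed by 4.25 to 32.8 times the sampling noise (chi-square per degree of freedom), so that none is a copy.

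The genes and lists were chosen with earlier results of these data known. A gene of the neighbouring lists is not reported here and was left out of their counts. Named are the 10 genes, each neighbouring gene called with at least 20 normalized counts on average, HSPA5, and the 3 genes nearest to the member with the smallest p; others were named after their values were seen. Positions are from GENCODE and promoters from RefSeq, both on GRCh38, and no hg19 coordinate is given. Libraries held 2234682 to 5029864 counts, which sets the precision for genes with few counts.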

Additional observations from a re-analysis of the deposited data

Results flagged for a closer look

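In 7 of 48 sets of 5 values, 1 library stood apart from the remaining 4 of the same condition (the 10 genes and 14 neighbouring genes in each condition), where chance gives about 1 in 20, or 2.4. In normalized counts, PCYT1A had 279 in tunicamycin replicate 1 beside 197.7 to 215 in the other libraries, PCYT2 had 326 in tunicamycin replicate 4 beside 250.0 to 270.4, and CEPT1 had 105 in control replicate 1 beside 141 to 152. Of the neighbouring genes, SELENOI had 215 in tunicamycin replicate 1 beside 338 to 371, CHDH had 287 in tunicamycin replicate 4 beside 338 to 353, GPCPD1 had 239.9 in tunicamycin replicate 3 beside 172 to 191, and GDE1 had 462 in control replicate 1 beside 357 to 387. A cause was not tested.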

How the results depend on the processing

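In 18 alternative fits the 4 lower genes of the 10 numbered 4, except after thinning to the smallest library, where CEPT1 lost its call and 3 were left. The number of higher genes, 2, was 1 with library size only, with no filter and after thinning, and 1 to 3 with a library left out. Wherever it was 1, ETNK1 had lost its call. With the replicate block it was 3, since CHKA was added. Among the neighbouring genes the block added SLC44A1, and it changed no other call in the 10 genes, the neighbouring lists and the marker lists. In DESeq2 with the replicate block CHKA was called (adjusted p = 0.00559) and ETNK1 was not (adjusted p = 0.0557). CHKB was removed by the default minimums and by thinning. Of the neighbouring genes 9 were lower, with 6 to 10 when a library was left out and 7 to 10 otherwise, and 7 to 9 were higher. Scaling by library size alone moved the median log2 fold change of all genes to -0.08 and the share of higher genes among those called from 51.4% to 40.8%. With pairs by day, a sign-flip permutation test over 5 pairs cannot go below 0.0625, and it gave that value for ETNK2 to ETNK1 (-1.41), PCYT1B to PCYT1A (-1.09) and CHPT1 to CEPT1 (1.16). With a library left out CHKB to CHKA was -2.24 to -1.25, and over all 13 alternatives run for this ratio it was -2.24 to -1.07. Depth limits CHKB, BHMT and SGMS2.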
